A study of Mus musculus with 4 samples.

Results

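AMP-activated protein kinase (AMPK) was read here through 8 genes: Prkaa1 and Prkaa2, which encode the catalytic alpha subunits, Prkab1 and Prkab2 for the beta subunits, Prkag1, Prkag2 and Prkag3 for the gamma subunits, and Stk11 for the upstream kinase LKB1. They were chosen by gene name as a pathway, and 8 of 8 were found among the 49997 genes of the count files. All 8 were counted at 7 reads or more in every library and passed the filter on low counts. The lowest was Prkag3, and the other 7 genes had at least 237 reads in each library.

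The samples came from cultured pieces of the aorta-gonad-mesonephros region (AGM, explants) of C57BL/6J mouse embryos, the region in which haematopoietic stem cells first arise. There were 2 libraries from untreated explants and 2 from explants treated with 5 µM CCCP, all kept in culture at a gas-liquid interface for 48 hours in medium with hydrocortisone, and no genetic change was named for either group. CCCP is a protonophore, a small molecule that carries protons across the inner mitochondrial membrane and so uncouples respiration from ATP synthesis. The series asks how mitochondrial activity bears on the maturation of embryonic blood stem cells. The labels give embryonic days 10.5 and 11.5 in the growth protocol but day 10.5 alone in the series design, and they name stem cells, Kit-positive in the design text, while the extraction protocol speaks of explants. How many embryos stand behind a library, and whether libraries came from separate cultures, is not given in the sources used here, so the p-values measure the spread between these libraries, which may be technical.

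AMPK is a heterotrimer of an alpha, a beta and a gamma subunit. It senses a fall in cellular energy through AMP and ADP bound to the gamma subunit, is switched on when LKB1 phosphorylates a threonine in the activation loop of the alpha subunit, and then favours catabolism and mitophagy over synthesis and growth. Uncouplers such as CCCP are known to activate AMPK by this phosphorylation, which an RNA count does not measure. In blood stem cells LKB1 is known for its part in energy balance and survival.

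The coding stretch that carries the activation loop is shown because it holds the site that LKB1 phosphorylates, and because it is where the 2 catalytic genes are closely alike. The letters run from the codons of the DFG motif to those of the APE motif in the longest coding GENCODE M21 transcript (mm10), 5′ to 3′, with the codon of the phosphorylated threonine in capitals.
Prkaa1: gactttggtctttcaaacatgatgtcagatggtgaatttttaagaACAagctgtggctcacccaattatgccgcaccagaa
Prkaa2: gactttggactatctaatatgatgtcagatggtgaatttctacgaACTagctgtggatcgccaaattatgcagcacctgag
The 27 codons encode the same residue in both genes at 27 positions, and the threonine was found at position 183 of the Prkaa1 open reading frame and at position 172 of the Prkaa2 frame. At the level of bases the stretches were identical at 68 of 81 positions (84.0%), and the longest identical run was 21 bases. Over whole transcripts, none of the 50-base stretches of Prkaa1, Prkaa2, Prkab1 or Prkab2 occurred in a GENCODE transcript of another gene. Reads of that length from these paralogs can thus be told apart.

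The other members differed in how cleanly they could be counted. For Prkag1, 30.9% of the 50-base stretches also occurred in the GENCODE transcript B130046B21Rik, while in the annotation used by the authors no exon of another gene touched Prkag1. Reads of Prkag1 were thus not dropped for overlap with another gene. How many of them came from B130046B21Rik was not tested. Of the exon bases of Stk11, 5.00% were shared with Cbarp on the opposite strand, and of those of Prkag2, 21.8% were shared with 2900005J15Rik and LOC115490109, also on the opposite strand. The counting used no strand, so reads from these parts of Stk11 and Prkag2 were dropped as shared. The levels of Prkag1 and Prkag2 in particular are uncertain.

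The 4 libraries held between 37360968 and 48827826 counted reads, with TMM factors from 0.966 to 1.04. Totals were close between libraries of the same number. They were 48216849 (untreated) and 48827826 (CCCP) for replicate 1, and 37360968 (untreated) and 37579087 (CCCP) for replicate 2. Pearson's r of log2 CPM (CPM, counts scaled by library size with TMM factors) was 0.978 within the untreated group and 0.979 within the CCCP group, across genes, which are not independent replicates. Libraries of different groups were about as alike: the 4 such pairs had r from 0.965 to 0.979, the highest for untreated replicate 2 with CCCP replicate 2. No 2 libraries matched within counting noise (chi-square of 37.5 or more for each degree of freedom), so each was used as a separate replicate. Markers placed the material as mixed tissue. Summed over 8 haematopoietic markers, levels were 162 to 167 CPM in untreated and 127 to 147 CPM in CCCP libraries, and Kit alone lay between 47.6 and 63.2 CPM. Mesenchyme, neural, muscle and endothelial lists had larger sums, and the kidney and gonad list a lower one in untreated libraries, with ranges that overlapped in CCCP libraries. Such sums do not rank cell types by amount, since the lists differ in their genes and CPM is not scaled by exon length. The sums were 983 to 1530 and 1185 to 1214 CPM for mesenchyme and smooth muscle, 1225 to 1337 and 1242 to 1306 CPM for neural genes, 333 to 472 and 435 to 451 CPM for skeletal muscle, 394 to 514 and 394 to 399 CPM for endothelium, and 97.5 to 150 and 103 to 143 CPM for kidney and gonad, untreated before CCCP in each case. The list that stood apart was hepatic, at 965 to 1690 CPM in untreated and 53.4 to 106 CPM in CCCP libraries. Of its genes, 10 of 10 were lower in both CCCP libraries than in both untreated ones, against 24.8% of all genes. In the tests given below, edgeR called 0 of the 10, at adjusted p-values of 0.133 to 0.229, and DESeq2 called 7. Within the CCCP pair, Afp was at 1.69 and 44.9 CPM and Trf at 47.1 and 38.3 CPM. In bulk tissue, fewer cells of a type and less RNA per cell cannot be told apart.

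Which forms of each subunit the explants expressed was read on a per-length scale, RPKM (CPM per kilobase of exon). The order of the mean over 4 libraries was Prkag1 at 25.7 RPKM, Prkab1 at 23.5, Stk11 at 21.7, Prkaa1 at 9.01, Prkab2 at 5.41, Prkag2 at 2.84, Prkaa2 at 1.03 and Prkag3 at 0.0835 RPKM. The first 3 overlapped from library to library, with ranges of 20.1 to 30.2, 19.4 to 27.7 and 19.0 to 23.4 RPKM. From Stk11 downwards no library of one gene reached into the range of the next. Prkag1 stood at the 87.1st percentile of the mean RPKM of 19837 tested genes and Prkag3 at the 4.98th. On this scale the transcripts of AMPK in these explants were thus mainly those of alpha1, beta1 and gamma1, the forms known as widely expressed. Prkaa2, Prkag2 and Prkag3, known from skeletal muscle and heart, were lower. The scale divides by all annotated exon bases, used or not. For Prkag2 these were 10530, against 3331 in its longest coding GENCODE transcript, so its place in the order depends on the length taken. Not scaled by length, Prkag1 averaged 45.4 CPM and Prkag2 29.9 CPM.

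The bases before the start of Prkag1 and Prkaa2 are shown because these were the 2 members with an unadjusted p under 0.05 in the comparison with CCCP. They are the 250 bases upstream of the RefSeq start (GRCm38.p6), directly outside the span in which the gene was counted, on the minus strand in both cases, 5′ to 3′ along the gene, with each CpG in capitals.
Prkag1, chr15:98831509-98831758: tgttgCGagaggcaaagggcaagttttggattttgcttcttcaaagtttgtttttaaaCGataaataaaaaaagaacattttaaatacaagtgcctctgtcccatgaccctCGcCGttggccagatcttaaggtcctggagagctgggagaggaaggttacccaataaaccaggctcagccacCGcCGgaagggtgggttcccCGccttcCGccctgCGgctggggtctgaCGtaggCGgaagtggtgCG
Prkaa2, chr4:105109899-105110148: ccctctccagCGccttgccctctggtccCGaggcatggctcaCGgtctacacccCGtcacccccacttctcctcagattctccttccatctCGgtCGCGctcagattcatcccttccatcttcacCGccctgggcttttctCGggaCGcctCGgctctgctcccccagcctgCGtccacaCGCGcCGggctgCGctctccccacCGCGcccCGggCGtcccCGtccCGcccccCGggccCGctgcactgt
CpG was counted 12 times before Prkag1 and 24 times before Prkaa2, against a median of 6 over 32851 such regions. Of all regions, 33.5% held 12 or more and 11.98% held 24 or more. The sequence CCAAT, read on both strands, occurred before Prkag1 and not before Prkaa2, and was present in 33.8% of all regions. The sequence CANNTG, which is its own reverse complement, likewise occurred before Prkag1 alone of the 2, and in 66.2% of all regions. These are matches of letters and not measured binding sites.

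Against this background CCCP was compared with untreated explants for each gene by edgeR's quasi-likelihood test, fitted over all genes. Of the 8 genes, 0 passed at an adjusted p-value under 0.05 (Benjamini-Hochberg over 19837 genes), and the same held for 0% of all genes tested. At an unadjusted p under 0.05 there were 2 of the 8, Prkag1 and Prkaa2, where 14.6% of all genes reached that level. DESeq2 on the same genes also called 0 of the 8, with no adjusted p for Prkag3, against 2.99% of all genes, and edgeR without the filter called 0 of the 8, against 3.43%. With the replicate number as a block, the fits called Prkag1 alone among the 8, where they called 10.7% (edgeR) and 6.89% (DESeq2) of all genes, and are given with the other alternatives because the numbers could not be shown to pair the libraries. The groups did not overlap for 4 of the 8, 2 higher and 2 lower in CCCP. Over all genes 48.8% did not overlap, 24% higher and 24.8% lower, so the members' share was near that of any genes. Their median log2 fold change was 0.01, against -0.01 over all genes tested.

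Prkaa1 (chromosome 15, 5143861 to 5181899) encodes alpha1, the main catalytic subunit of blood cells. Its levels were 41.6 and 46.3 CPM in untreated libraries and 37.7 and 42.9 CPM in CCCP libraries. The groups overlapped, since CCCP replicate 2 lay above untreated replicate 1. On the log2 scale the difference was -0.12 (standard error 0.134, 95% interval from -0.45 to 0.20), and edgeR gave an adjusted p-value of 0.682. Leaving out 1 library moved it between -0.22, without CCCP replicate 2, and -0.03, without untreated replicate 2 or without CCCP replicate 1. On a linear scale that interval runs from 0.732 to 1.15 times the untreated level.

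Prkaa2 (chromosome 4, 105029649 to 105109898) encodes alpha2, the catalytic form prominent in muscle, heart and liver. It was counted at 11.5 and 8.77 CPM in untreated libraries and at 7.03 and 6.53 CPM in CCCP libraries. Both CCCP libraries lay below both untreated ones, and the untreated pair was further apart than the CCCP pair. The fold change was 0.667, a log2 value of -0.58 (standard error 0.231, interval from -1.15 to -0.02), and the edgeR adjusted p-value was 0.33. Without untreated replicate 1 the log2 fold change was -0.36, and without untreated replicate 2 it was -0.75. The hepatic markers were lower in the same 2 libraries, as given above, and their part in the difference of Prkaa2 was not tested.

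The beta subunits carry the glycogen-binding module and hold the trimer together. Prkab1 (chromosome 5, 116013586 to 116024503), for beta1, had 41.3 and 50.03 CPM in untreated and 49.6 and 59.0 CPM in CCCP libraries. Untreated replicate 2 and CCCP replicate 1 lay side by side, so the groups overlapped by a small margin. The log2 difference was 0.25 (standard error 0.154, interval from -0.12 to 0.62), at an adjusted p-value of 0.484 in edgeR. It was 0.12 when untreated replicate 1 or CCCP replicate 2 was left out, 0.37 when CCCP replicate 1 was, and 0.41 when untreated replicate 2 was. Prkab2 (chromosome 3, 97658211 to 97673812), for beta2, had 32.2 and 29.4 CPM in untreated and 26.2 and 25.9 CPM in CCCP libraries. Here the groups did not overlap and the CCCP pair was close together. The log2 difference was -0.24 (interval from -0.57 to 0.08), at an adjusted p-value of 0.442 in edgeR.

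The gamma subunits bind the adenine nucleotides. Prkag1 (chromosome 15, 98812797 to 98831508), for gamma1, was counted at 35.5 and 40.7 CPM in untreated and at 51.9 and 53.4 CPM in CCCP libraries. Both CCCP libraries lay above both untreated ones, by a gap of more than the distance between libraries of either group. The fold change was 1.38, a log2 value of 0.47 (standard error 0.126, interval from 0.16 to 0.77). Its unadjusted p was 0.00972 in edgeR, the smallest of the 8, with an adjusted p-value of 0.234 in edgeR and 0.127 in DESeq2. With 1 library left out in turn the log2 value stayed between 0.38 and 0.59. It was the member with the shortest exons, at 1766 bases. How much of its count came from B130046B21Rik, named above, was not tested.

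Prkag2 (chromosome 5, 24862735 to 25106282), for gamma2, a form whose mutations cause a heart disease with glycogen storage, had 26.9 and 29.98 CPM in untreated and 27.9 and 34.6 CPM in CCCP libraries. CCCP replicate 1 lay between the untreated libraries, and the log2 difference of 0.14 (standard error 0.161, edgeR adjusted p-value 0.712) became -0.03 without CCCP replicate 2. Prkag3 (chromosome 1, 74738922 to 74749471), for gamma3, the form of fast skeletal muscle, was held by 19 and 8 reads in untreated and 7 and 10 reads in CCCP libraries, or 0.380 and 0.214 against 0.144 and 0.276 CPM. A floor of 3 reads corresponds to 0.0614 to 0.0803 CPM before TMM scaling, so each library was above it by a small number of reads. Of the 50-base stretches of Prkag3, 1.37% also occurred in transcripts of many other genes, and their part in these reads was not tested. The interval of the log2 fold change of Prkag3 ran from -2.31 to 1.25, and a difference was not detectable at this depth. Myod1, the muscle-determining factor among the skeletal muscle markers, was at 14.1 to 33.4 CPM, and Ckm, of mature muscle, had 1 to 7 reads per library. Other genes of that list ranged widely. Myh3 was at 126 to 152 CPM and Actc1 at 91.2 to 151 CPM. Tnnt3 was at 5.08 to 6.67 CPM and Mylpf at 0.428 to 0.619 CPM.

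Stk11 (chromosome 10, 80115767 to 80130679), for LKB1, was counted most deeply, at 3870 to 5597 reads. Its levels were 93.6 and 103 CPM in untreated and 115 and 114 CPM in CCCP libraries. The groups did not overlap, and the CCCP libraries differed by less than the untreated ones. The log2 difference was 0.22 (interval from -0.06 to 0.50), at an adjusted p-value of 0.425 in edgeR. The upper end of that interval is 1.41 times the untreated level.

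**Figure D1:**
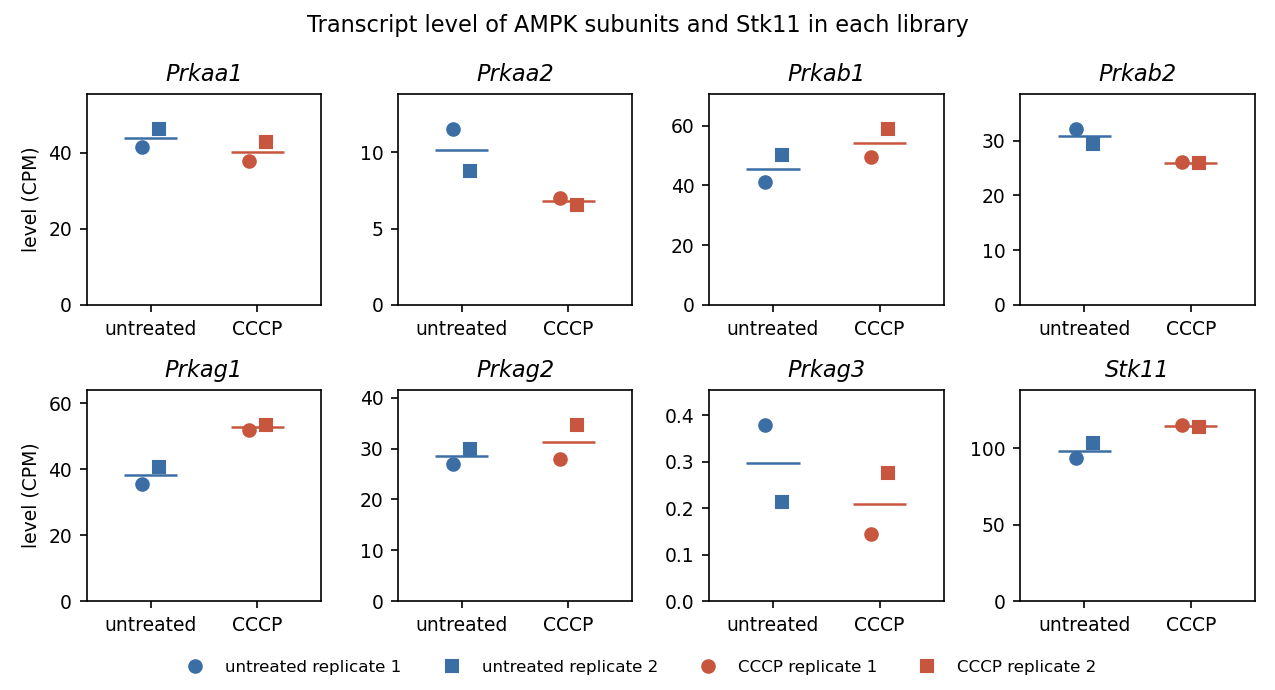
Level of each gene in CPM (vertical axis, from 0, scaled per gene) in untreated (blue) and CCCP libraries (red). Circles are replicate 1, squares replicate 2 and lines the mean of 2 libraries. The groups are apart for Prkaa2, Prkab2, Prkag1 and Stk11 and overlap for the other 4 genes.

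Gene properties moved with these differences. Across all genes tested, log2 fold changes went with exon length (Spearman's rho -0.35) and with the GC content of the transcript (rho 0.39, over the 90.4% of genes with a value), as a description across genes that share libraries. The members with negative values were Prkaa1 and Prkaa2, with 40.2% and 40.7% GC and 4677 and 8202 exon bases, Prkab2 with 46.8% and 5249 bases, and Prkag3 with 53.1% and 3034 bases. Those with positive values were Prkab1 with 55.0% and 2130 bases, Prkag1 with 52.8% and 1766 bases, Stk11 with 59.7% and 4918 bases, and Prkag2 with 50.1% and 10530 bases. The medians of all genes tested were 50.2% GC and 3467 bases. With the GC trend of each library removed, an alternative chosen after seeing the data, Prkaa1 stood at 0.23, Prkaa2 at -0.25, Prkab1 at 0.11, Stk11 at 0.05 and Prkag1 at 0.36. With the length trend removed, Prkaa2 stood at -0.37, Prkab1 at 0.14, Stk11 at 0.28, Prkag1 at 0.33 and Prkag2 at 0.40. In both fits edgeR called 0 of the 8 genes.

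**Figure D2:**
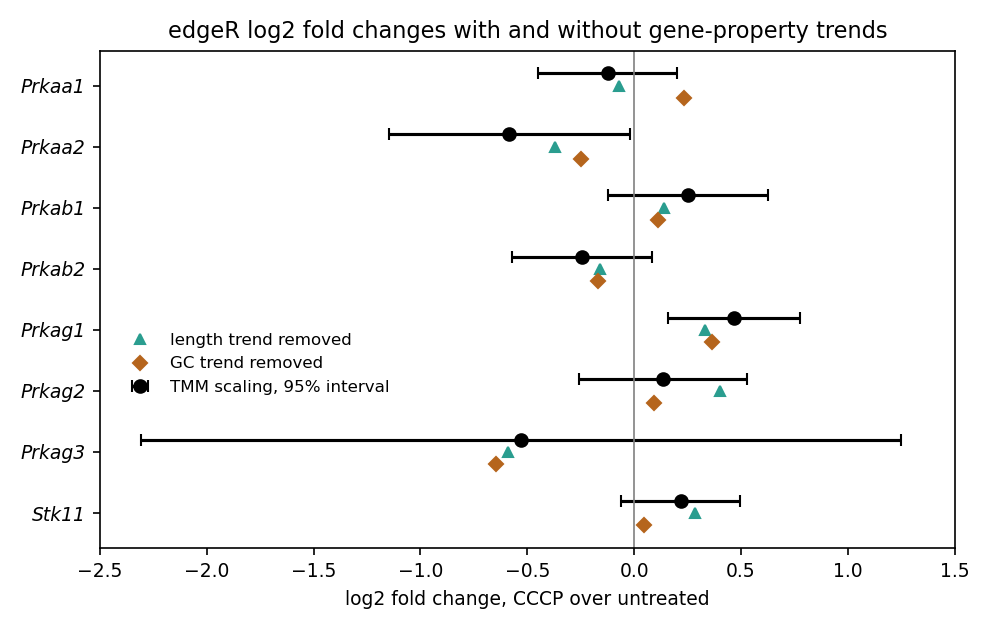
log2 fold change of CCCP over untreated (horizontal axis) for each gene. Black circles with bars are edgeR estimates with 95% intervals, green triangles have the length trend and brown diamonds the GC trend of each library removed. The intervals of Prkag1 and Prkaa2 leave out 0 before adjustment, and Prkaa1 changes sign when the GC trend is removed.

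Because the subunits of a class compete for a place in the trimer, their balance within each library was computed from RPKM. Library scaling does not touch this balance, but the shares depend on the exon length taken for each gene, for Prkag2 in particular. Prkaa1 made up 86.3% and 90.3% of alpha transcripts without treatment and 90.4% and 92.0% with CCCP. Prkab1 made up 76.0% and 80.7% of beta transcripts in untreated and 82.4% and 84.9% in CCCP libraries. Of gamma transcripts, Prkag1 made up 88.2% and 88.8% in untreated and 91.6% and 89.9% in CCCP libraries, and Prkag3 at most 0.549% in any library. In each class the more abundant form held a larger share in both CCCP libraries than in both untreated ones. For the alpha class the margin was far smaller than the distance between the untreated libraries. For beta it was also smaller than that distance, and for gamma it was smaller than the distance between the CCCP libraries. Of all single genes, 24% were higher in CCCP without overlap and 24.8% lower. The like share for ratios of genes was not computed.

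As log2 ratios, Prkaa1 over Prkaa2 was 2.94 ± 0.391 in untreated and 3.38 ± 0.206 in CCCP libraries (SD, n = 2 in each group). Prkab1 over Prkab2 was 1.86 ± 0.289 and 2.36 ± 0.189, and Prkag1 over Prkag2 was 2.995 ± 0.0307 and 3.34 ± 0.191 (SD, n = 2). The differences were 0.45, 0.49 and 0.34. For all 3 ratios the exact two-sided permutation p was 0.33, the smallest that 2 libraries against 2 can give, so this test cannot call them. Without untreated replicate 1 the alpha difference was 0.17 and the beta difference 0.29, and without untreated replicate 2 they were 0.72 and 0.70. The gamma difference was 0.21 without CCCP replicate 1. In each pair the less abundant gene had the longer exons, and with the length trend removed the differences were 0.30 for alpha, 0.30 for beta and -0.07 for gamma. With the GC trend removed, an alternative added after seeing the data like that for length, they were 0.48, 0.28 and 0.27.

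**Figure D3:**
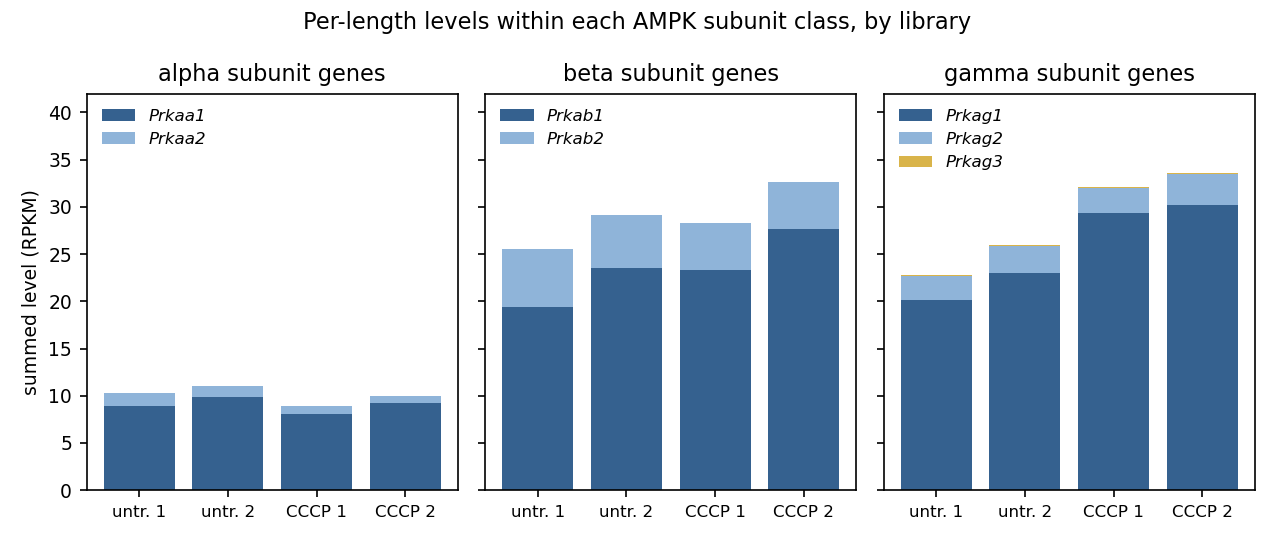
RPKM (vertical axis, from 0) of the genes of each subunit class, stacked, in the 4 libraries. Dark bars are Prkaa1, Prkab1 and Prkag1, light bars Prkaa2, Prkab2 and Prkag2, and Prkag3 is too low to be seen. Alpha transcripts sum to 8.92 to 10.98 RPKM and beta transcripts to 25.5 to 32.6 RPKM, and gamma transcripts sum to more in both CCCP libraries than in both untreated ones.

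Summed over the class, alpha transcripts stood at 10.6 ± 0.482 RPKM in untreated and 9.45 ± 0.743 RPKM in CCCP libraries, beta transcripts at 27.3 ± 2.53 and 30.4 ± 3.06 RPKM, and gamma transcripts at 24.4 ± 2.26 and 32.8 ± 1.08 RPKM (SD, n = 2 in each group). Alpha transcripts were thus the least abundant class in every library. The sums carry the same uncertainty in the exon length of each gene as the single values, since RPKM divides by all annotated exon bases, used or not.

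The genes around AMPK were read from 5 lists with 68 genes, and all 68 passed the filter. edgeR called 0 of them at an adjusted p-value under 0.05, with a smallest adjusted p of 0.206, and 11 had an unadjusted p under 0.05, 5 higher and 6 lower. That is 16.2%, against the 14.6% of all genes given above. The groups did not overlap for 30 of the 68, 16 higher and 14 lower (44.1%, against 48.8% of all genes).

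The LKB1 complex and the other kinases that phosphorylate AMPK had a median of 0.11 (log2 fold change) over 7 genes, with 0 genes under an unadjusted p of 0.05. Strada, the pseudokinase that holds LKB1 in the cytoplasm in its active form, stood at 0.16, and Cab39l at 0.18, which was -0.0038 without CCCP replicate 2. Cab39, the scaffold MO25 of the same complex, stood at -0.19 and was lower in both CCCP libraries, and Map3k7 (TAK1) stood at -0.07. The edgeR adjusted p-values of the list lay between 0.490 and 0.90. The 13 AMPK-related kinases, which LKB1 also phosphorylates with the exception of Melk, had a median of 0.01 and again 0 genes under an unadjusted p of 0.05. Mark2 and Mark4, kinases of microtubule-associated proteins, stood at 0.19 and 0.11, and Mark1 and Sik2 at -0.22 and -0.20.

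Among 23 direct substrates of AMPK the median was 0.01, with 0 genes higher and 4 lower at an unadjusted p under 0.05 in edgeR, where 9.16% of all genes were lower at that level. Txnip, an inhibitor of glucose uptake that AMPK marks for degradation, had 26.4 and 45.2 CPM in untreated and 21.9 and 16.5 CPM in CCCP libraries. Its untreated libraries were far apart, and its log2 fold change of -0.89 (edgeR adjusted p-value 0.272) was -0.44 without untreated replicate 2. Pfkfb3, which makes the activator of phosphofructokinase, had 87.9 and 90.5 CPM in untreated and 69.7 and 56.2 CPM in CCCP libraries, a log2 difference of -0.50 at an adjusted p-value of 0.242 in edgeR. Rptor, the mTORC1 subunit that AMPK phosphorylates, stood at 0.20, and Becn1, a gene of autophagy, at 0.17.

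The list of mTORC1 and of the lysosomal proteins that regulate AMPK had the largest median of the 5, at 0.21 over 17 genes. All 5 genes of the 68 that were higher at an unadjusted p under 0.05 were in this list, with 1 lower, and 5.45% of all genes were higher at that level. Akt1s1 (PRAS40, an inhibitor in mTORC1) had 71.7 and 75.8 CPM in untreated and 99.5 and 105 CPM in CCCP libraries, a log2 difference of 0.47 at an adjusted p-value of 0.206 in edgeR. Lamtor1, which anchors the Ragulator on the lysosome and is known to bring LKB1 to it through Axin, had 46.5 and 49.6 CPM in untreated and 62.0 and 66.6 CPM in CCCP libraries, a log2 difference of 0.42 at an adjusted p-value of 0.241 in edgeR. Rps6kb1, the S6 kinase, stood at -0.41 and Deptor at -0.32. GC content moved with these values too: it was 61.8% for Akt1s1, 56.5% for Lamtor1 and 39.2% for Rps6kb1, whose log2 fold changes were 0.29, 0.27 and -0.01 once the GC trend was removed. The median of the list was then 0.13.

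The sestrins, stress-induced proteins that promote AMPK activity, and the phosphatases linked to AMPK had a median of -0.05 over 8 genes, with 1 gene lower at an unadjusted p under 0.05. That gene was Ppm1e, a phosphatase of the PPM family, at 38.4 and 29.1 CPM in untreated and 22.1 and 18.1 CPM in CCCP libraries. Its log2 fold change of -0.75 had an adjusted p-value of 0.227 in edgeR and 0.042 in DESeq2, so it was the 1 gene of the 68 that DESeq2 called. The first exon listed for Ppm1e lay on an alternate sequence of chromosome 11, and its listed positions ran from 357087 to 87358994. Its counts and exon length may thus mix copies of the gene, which was not tested. Sesn2 had 71.0 and 131 CPM in untreated and 121 and 130 CPM in CCCP libraries. Untreated replicate 1 was the low library and the other 3 lay close together, so its log2 fold change of 0.31 was -0.05 without that library. Sesn3, whose groups overlapped, stood at -0.31 and at -0.04 once untreated replicate 1 was left out. Ppm1f stood at 0.14, and both had edgeR adjusted p-values of 0.485 or more.

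**Figure D4:**
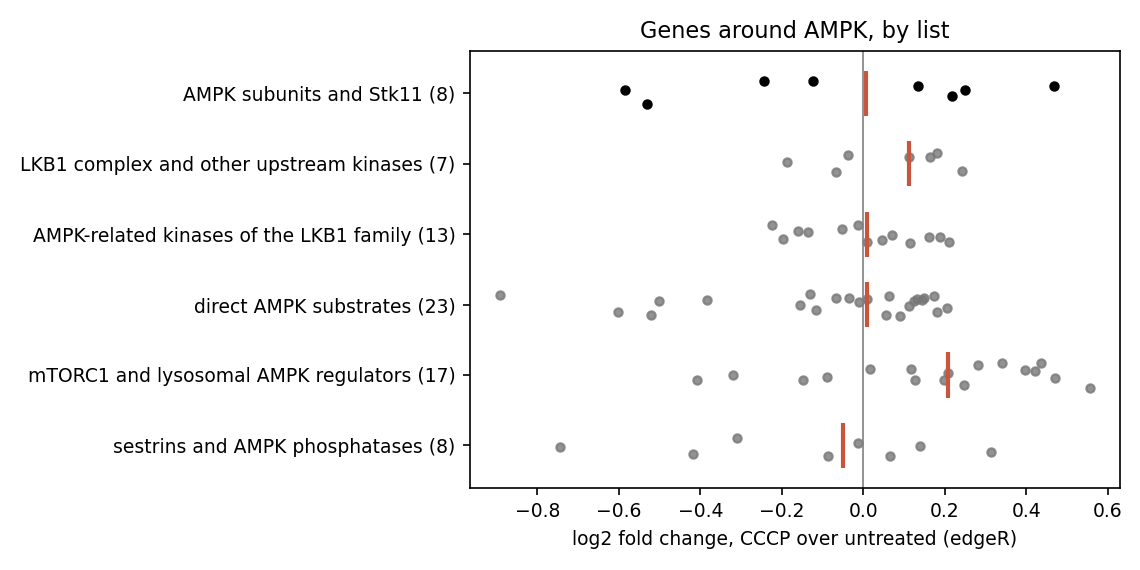
log2 fold change of CCCP over untreated (horizontal axis, edgeR) for the 8 AMPK genes (black) and the genes of the 5 lists around AMPK (grey), with the number of genes tested in brackets. Points are genes, spread vertically for legibility, and red bars are medians. The medians lie between -0.05 and 0.21.

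The gene nearest to each member in its course over the 4 libraries was sought among 75 other members and list genes, by Euclidean distance of log2 CPM centred on the mean of each gene. Prkag1 lay nearest to Akt1s1 (0.0876) and Lamtor1 (0.099). Stk11 lay nearest to Rptor (0.0781) and Becn1 (0.0867), and Prkab2 to Sik2 (0.0694) and Fnip2 (0.113). Prkaa1 lay nearest to Map3k7 (0.103) and Cab39 (0.122), and Prkaa2 to Pfkfb2 (0.122) and Ppm1e (0.213). Prkab1 and Prkag2 shared their nearest pair, Cab39l and Tbc1d1, at 0.103 to 0.133. Prkag3 had no close match, with 0.477 to Sesn3 and 0.479 to Ppargc1a. None of the members had another member among its nearest 2 genes, where 68 of the 75 candidates were list genes. With 4 libraries such likeness is a description only.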

How the data were processed

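Poly(A) RNA of 4 libraries was sequenced. The files deposited by the authors hold unnormalized read counts for each gene, from featureCounts 2.0.3 on the mm10 RefSeq annotation, per the file headers, without strand, read-pair, multi-mapping or overlap options; HISAT2, SAMtools, FastQC and Subread are named in the submitters' processing notes. Counts are thus uncertain where genes overlap. Groups came from sample titles. The main test was edgeR 4.0.16 in R 4.3.3 (quasi-likelihood, TMM, filterByExpr with minimum count 10 and minimum total 15, group alone, Benjamini-Hochberg over all genes, threshold 0.05), tested on simulated data. The simulated libraries varied less than these, whose biological coefficient of variation (spread beyond counting) was 21.9%. The simulation thus does not show which changes the test can call here. Standard errors are the log2 fold change over the square root of F. Log2 CPM used a prior count of 2. GC content is that of the longest coding GENCODE M21 transcript. The alternatives were RLE scaling, library totals, no filter, DESeq2 1.42.0, the replicate number as a block, removal of length or GC trends by lowess, and leaving out each library. From each list up to 2 genes per direction with the smallest p were named; Fnip2, Pfkfb2, Tbc1d1 and Ppargc1a were named by the rule on nearest genes. The markers named singly, among them Kit, Myod1 and Ckm, were singled out after their values were seen. The members and lists were chosen with earlier results of these data known. Coordinates are on mm10, and 8 of 8 members had the same coordinates in the RefSeq table of GRCm38.p6. The floor on reads rests on counting alone, while the edgeR intervals also take in the estimated spread between libraries.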

Additional observations from a re-analysis of the deposited data

How the results depend on the processing

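In the other settings that gave an adjusted p, of 14 run, every member except Prkag1 stayed on the same side of the threshold. DESeq2 gave none for Prkag3, with or without the block. Deviations from the group mean correlated between libraries of the same number (0.36), and their read totals were close. The labels do not say what the number stands for, and 2 pairs cannot show a pairing. With the replicate block, edgeR called 1 of the 8 genes, Prkag1 (log2 fold change 0.47, adjusted p 0.0223), 9 of the 68 list genes and 2118 genes in all. DESeq2 with the replicate block called 1 (Prkag1, adjusted p 0.040), 5 and 1366. Removal of the length trend together with the replicate block gave 0, 6 and 1242. Removal of the GC trend together with the block, added after the data had been seen, gave 0, 5 and 910. Over all 14 settings the adjusted p of Prkag1 ran from 0.0223 to 0.817. Without the filter edgeR called 0, 4 and 1107, and DESeq2 on the filtered genes 0, 1 and 594. Leaving out 1 library gave 1 to 34 genes in all, the highest without untreated replicate 2, and 0 members. Of 112 member values, 3 changed sign: Prkaa1 to 0.23 with the GC trend removed, with and without the replicate block, and Prkag2 to -0.028 without CCCP replicate 2, in a range up to 0.28 over libraries left out. The gamma balance turned to -0.068 with the length trend removed. The depth of Prkag3 limits what can be seen of it.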

Other observations

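The bases upstream of the other members were also read for CpG, with no test. In the 250 bases before the start listed in the RefSeq promoter table, Prkaa1 held 45 CpG, a number reached by 0.405% of all 32851 regions, and Prkab2 held 18 (reached by 21.7%). For Prkab1 and Stk11, with 24 each (11.98%), the listed start lies inside the span in which the gene was counted, so that the region falls partly within the gene. For Prkag2, with 34, 4 and 23 at 3 listed starts, and for Prkag3, with 9 (40.3%), the regions lie wholly within that span. Prkag1, the member with the highest mean RPKM, held 12.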
